A study of Mus musculus with 6 samples.

Results

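Polycomb repressive complex 2 (PRC2) is described here through the transcripts of 10 of its core and accessory subunit genes in embryonic mouse midbrain with and without a conditional knockout of *Ezh2*. The members are *Ezh2*, *Ezh1*, *Eed*, *Suz12*, *Rbbp4*, *Rbbp7*, *Mtf2*, *Phf19*, *Jarid2* and *Aebp2*, taken as every probe set that the platform's annotation assigns to 1 of these symbols alone. All 10 genes were measured, by 35 of the 45037 probe sets tested and among 18193 genes. Each gene is represented by its probe set with the highest mean over the 6 arrays, and the other probe sets are given beside it. Total RNA came from dorsal midbrain of C57BL/6 embryos at embryonic day 10.5 and was hybridized to 1 Affymetrix A430 array per sample, with 3 control and 3 *Ezh2* cko arrays. By the methods, the *Ezh2* cko embryos carried *Wnt1-Cre* and were homozygous for a floxed *Ezh2* allele from which Cre removes the part encoding the catalytic SET domain. The controls carried either the same homozygous floxed allele without Cre, or *Wnt1-Cre* with 1 floxed and 1 wild-type allele, while the labels give all of them as WT and do not tell the kinds apart. *Wnt1-Cre* acts in the dorsal midbrain and the neural crest, and the share of recombined cells in the dissected tissue was not measured by these arrays. Each group came from 2 litters, which the labels do not assign to samples, and they do not say whether a sample is 1 embryo, so the p-values measure the spread between these samples.

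PRC2 places methyl groups on lysine 27 of histone H3, and the trimethylated form marks silent genes. *Ezh2* and *Ezh1* encode alternative catalytic subunits, which are active only together with the products of *Eed* and *Suz12*, and the histone-binding proteins RBBP4 and RBBP7 complete the core. Accessory proteins define forms of the complex that exclude each other: the Polycomb-like proteins, among them those of *Mtf2* and *Phf19*, in one, and JARID2 and AEBP2 in the other. In the developing brain *Ezh2* is known as the form of dividing progenitors, and *Ezh1* is better known from cells that have stopped dividing.

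*Ezh2* and *Ezh1* are transcribed from separate genes, and the windows around their starts are shown because the floxed part of *Ezh2* encodes the SET domain near the end of the protein and leaves this region in place in both groups. Each is a 300-base RefSeq window on GRCm38.p6, with 250 bases before and 50 after the start, read 5′ to 3′ on the gene's strand. Capitals mark the letters of an E2F-type motif (TTTCCCGC, TTTCGCGC, TTTGCCGC or TTTGGCGC) and of CCAAT, on either strand. The *Ezh2* window is chr6:47594981-47595280 and the *Ezh1* window is chr11:101226414-101226713, both on the minus strand.
Ezh2: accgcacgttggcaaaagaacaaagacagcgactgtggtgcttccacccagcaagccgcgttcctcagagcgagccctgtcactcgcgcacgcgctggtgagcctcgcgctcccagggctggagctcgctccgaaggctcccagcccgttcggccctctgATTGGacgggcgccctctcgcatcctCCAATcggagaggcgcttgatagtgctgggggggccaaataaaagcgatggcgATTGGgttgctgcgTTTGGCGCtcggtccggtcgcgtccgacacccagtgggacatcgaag
Ezh1: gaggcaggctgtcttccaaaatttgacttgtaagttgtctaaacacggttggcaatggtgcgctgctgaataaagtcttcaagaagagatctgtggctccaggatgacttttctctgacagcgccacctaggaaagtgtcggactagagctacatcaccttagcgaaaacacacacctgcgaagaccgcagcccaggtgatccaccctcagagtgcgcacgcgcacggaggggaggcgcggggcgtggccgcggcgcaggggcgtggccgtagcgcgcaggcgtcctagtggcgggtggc
The *Ezh2* window holds 1 E2F-type match and 3 of CCAAT, and the *Ezh1* window holds neither. All 10 genes have at least 1 window in this table, 14 in all, and the E2F-type letters occur in 3 of them, those of *Ezh2*, *Suz12* and *Phf19*, against 2.26% of all 32851 windows. CCAAT occurs in 9 of the 14 and in 37.4% of all windows. The *Ezh2* window has 31 CpG dinucleotides and that of *Ezh1* has 23, with a median of 7 over all windows. A match of letters is a description and does not show that a factor binds.

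None of the 10 PRC2 genes passed the test for a difference between *Ezh2* cko and control midbrain. With limma and Benjamini-Hochberg adjustment over all probe sets, 0 of the 10 genes and 0 of the 35 probe sets passed an adjusted p of 0.05, where 0.302% of all genes and 0.189% of all probe sets did. The adjusted p-values of the 10 genes lay between 0.830 and 0.971. The log2 differences, *Ezh2* cko minus control, ran from -0.07 for *Mtf2* to 0.11 for *Jarid2*, 4 above and 6 below 0, with a median of -0.03 against -0.02 over all genes. At an unadjusted p under 0.05 from limma, 0 of the 10 genes and 1 of the 35 probe sets passed. Of all genes 8.87% did, and of all probe sets 7.55%. The methods name an unpaired test under imaging and quantification, and no test for the arrays. Run on the arrays, this unpaired test gave the same counts of 0 and 1, against 8.16% and 6.72%. The methods also set a joint threshold on the size of a change and its unadjusted p, which 0 of the 35 probe sets passed, against 0.26% of all probe sets.

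The intervals of the probe sets that represent the 10 genes were narrow. The 95% intervals of the 10 genes from limma together spanned log2 differences of -0.24 to 0.31, or 0.846- to 1.24-fold, each interval covering its own gene alone. All 10 lay inside a band of 0.5 log2 units either way, as did those of 90.3% of all genes. Of the 35 member probe sets, the intervals of 30 lay inside this band. Those of 5 reached beyond it, all of them non-representing probe sets of *Rbbp4* and *Suz12*. For comparison, the smallest absolute log2 difference among the probe sets past the adjusted p was 0.54. The standard errors of the 10 genes were 0.07 to 0.09. These bounds hold for RNA of the whole dissected tissue, in which fewer cells of a type and less RNA per cell cannot be told apart.

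**Figure D1:**
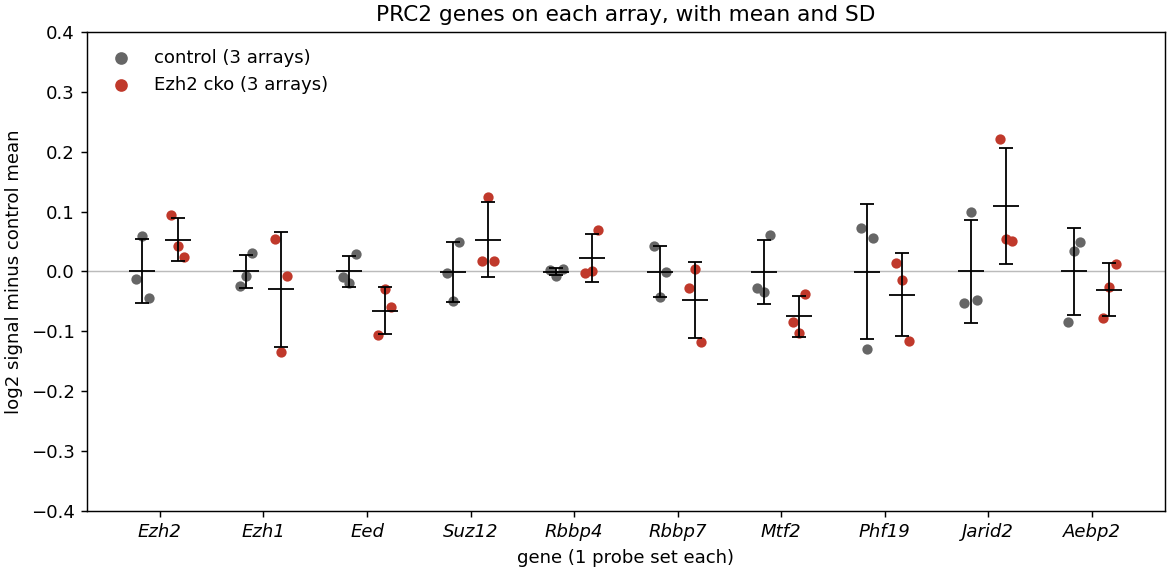
Deviation of the log2 signal on each array from the mean of the controls (y axis) for the 10 PRC2 genes (x axis), with control arrays in grey, *Ezh2* cko arrays in red, and the mean and SD of 3 arrays in black. The points of the groups lie among each other in 8 genes, and in *Eed* and *Mtf2* the *Ezh2* cko points lie just below the controls.

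*Ezh2* itself had nearly the same array signal in both groups. Its log2 signals were 11.69, 11.76 and 11.66 in control replicates 1 to 3 and 11.79, 11.74 and 11.72 in *Ezh2* cko replicates 1 to 3. The groups overlapped, and the log2 difference was 0.05 (95% interval -0.11 to 0.22, adjusted p = 0.918 from limma). This is 1.04-fold, with an interval of 0.924- to 1.17-fold. The array carries 1 probe set for *Ezh2*, which the tables used do not place inside or outside the floxed part of the gene at chr6:47530274-47595270 on GRCm38.p6, so it checks neither the deletion nor the labels. The paper gives other evidence of the loss. It reports by antibody staining that EZH2 protein was gone from embryonic day 10.5 on, and by qRT-PCR that *Ezh2* was lower in mutant midbrain on later days.

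*Ezh1*, whose product can take the catalytic place of EZH2, was at log2 signals of 6.69, 6.71 and 6.75 in controls and 6.77, 6.58 and 6.71 in the *Ezh2* cko. The highest and the lowest of these were both *Ezh2* cko arrays. The log2 difference was -0.03 (95% interval -0.21 to 0.15, adjusted p = 0.963), which bounds any rise of *Ezh1* as measured by this probe set at 1.11-fold. Its other 3 probe sets gave log2 differences of 0.01, -0.17 and 0.09, and the groups overlapped in all 4. Those 3 had control means of 4.755, 3.95 and 3.43, below the median of all values, 5.70. The representing probe set, at a control mean of 6.72, was not far above that median. Signals this dim limit what the 4 probe sets can show about *Ezh1*. No level of *Ezh1* can be set against that of *Ezh2*, since a log2 signal depends on the probes. Taken within each array, the *Ezh1* signal minus that of *Ezh2* differed by -0.08 between the groups (SD 0.07 in controls and 0.08 in the *Ezh2* cko, n = 3 each, exact two-sided permutation p = 0.4, adjusted over 4 pairs of subunits 0.667). With 3 arrays against 3 this test cannot go below 0.1.

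Of the partners that the catalytic subunits need, *Eed*, which encodes the subunit that binds trimethylated lysine 27, was at 11.38, 11.37 and 11.42 in controls and 11.28, 11.36 and 11.33 in the *Ezh2* cko. All 3 *Ezh2* cko arrays lay below all 3 controls, by a margin of hundredths of a log2 unit, and the log2 difference was -0.07 (95% interval -0.23 to 0.10, adjusted p = 0.885). Such separation toward lower signal held for 2 of the 10 genes, *Eed* and the accessory gene *Mtf2*, and for 7.88% of all genes. The other probe set of *Eed* gave -0.11 with overlapping groups.

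*Suz12*, which encodes the scaffold of the complex, was at 10.93, 10.89 and 10.99 in controls and 10.95, 11.06 and 10.95 in the *Ezh2* cko. The log2 difference was 0.05 (95% interval -0.12 to 0.23, adjusted p = 0.920). Its other 5 probe sets ranged from -0.09 to 0.24, and 5 of the 6 were above 0. The groups overlapped in all 6, and *Ezh2* cko replicate 2 was the highest array in 5 of them. The probe set at 0.24 had an SD of 0.38 in controls and 0.29 in the *Ezh2* cko, larger than the difference itself.

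*Rbbp4* and *Rbbp7*, paralogs whose similar transcripts may share probes, did not pass the test either. The *Rbbp7* probe set that represents the gene was at 13.15, 13.07 and 13.11 in controls and 13.08, 13.12 and 12.99 in the *Ezh2* cko, a log2 difference of -0.05 (95% interval -0.22 to 0.12, adjusted p = 0.930). The second gave 0.01. The *Rbbp4* probe set that represents the gene was at 13.46, 13.45 and 13.46 in controls and 13.46, 13.46 and 13.53 in the *Ezh2* cko (log2 difference 0.02, 95% interval -0.14 to 0.18, adjusted p = 0.971), and is of the kind marked as open to cross-hybridisation. The *Rbbp7* minus *Rbbp4* signal within arrays differed by -0.07 between the groups (exact permutation p = 0.5, adjusted p = 0.667).

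The other 3 probe sets of *Rbbp4* varied widely between arrays, and the groups overlapped in each of them. The first was at 10.93, 10.98 and 11.69 in controls and 10.62, 11.16 and 11.85 in the *Ezh2* cko. The next was at 8.06, 7.80 and 8.99 in controls and 7.77, 8.23 and 8.76 in the *Ezh2* cko, and the last was at 6.66, 6.67 and 7.47 in controls and 6.72, 6.43 and 7.47 in the *Ezh2* cko. In each of the 3, control replicate 3 and *Ezh2* cko replicate 3 stood above the other 4 arrays. The probe set that represents the gene was also highest on these arrays, but over a much smaller range. The SD of the 3 over the 6 arrays was 0.45 to 0.51, against 0.03 for the representing probe set, and 0.582% to 0.870% of all probe sets varied as much. Their log2 differences between the groups were 0.01, -0.03 and -0.06, with 95% intervals reaching from -0.77 to 0.71, so a rise of up to 1.63-fold in what these probe sets read lies within the intervals.

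**Figure D2:**
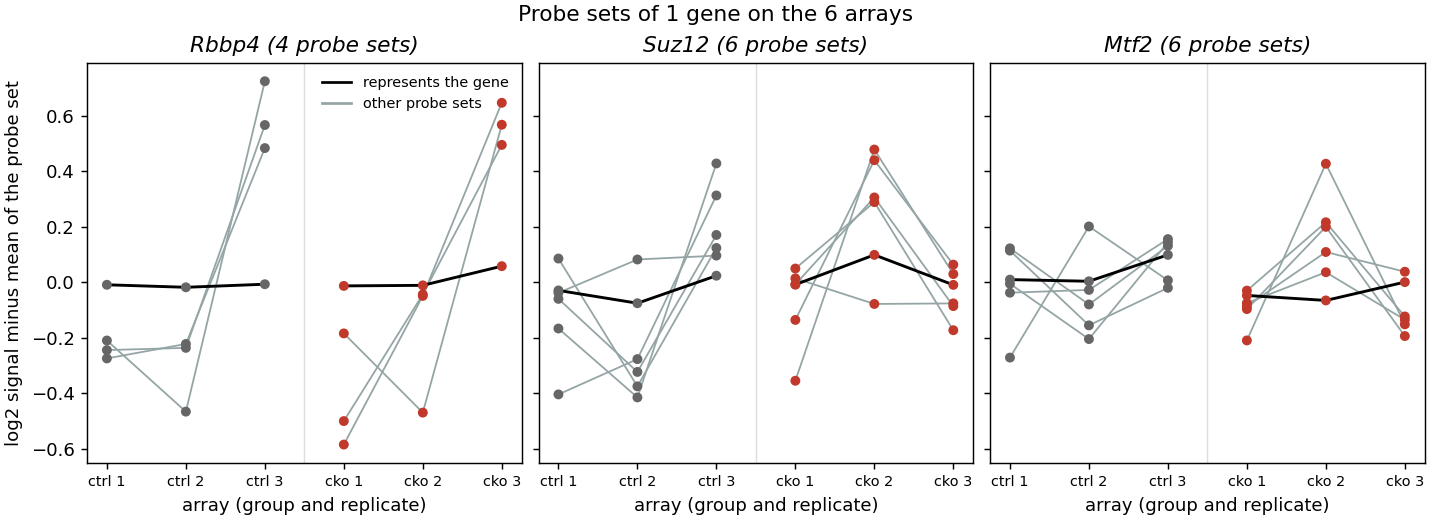
Log2 signal minus the mean of the probe set over the 6 arrays (y axis) on each array (x axis, control, ctrl, in grey and *Ezh2* cko in red) for the probe sets of *Rbbp4*, *Suz12* and *Mtf2*, 1 line each, with the probe set that represents the gene in black. In *Rbbp4*, 3 probe sets stand high on replicate 3 of both groups, and in *Suz12* 5 of 6 are highest on *Ezh2* cko replicate 2.

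*Mtf2*, a Polycomb-like gene whose product helps to bring PRC2 to CpG-rich DNA, was at 10.62, 10.61 and 10.70 in controls and 10.56, 10.54 and 10.61 in the *Ezh2* cko. The groups did not overlap, with the closest pair of arrays nearly equal, and the log2 difference was -0.07 (95% interval -0.24 to 0.09, adjusted p = 0.867). Its other 5 probe sets ranged from -0.12 to 0.04, 3 of them above 0, with overlapping groups in all 5. *Phf19*, the other Polycomb-like gene here, was at 6.99, 6.79 and 6.98 in controls and 6.94, 6.91 and 6.80 in the *Ezh2* cko (log2 difference -0.04, 95% interval -0.24 to 0.16, adjusted p = 0.953). Its second probe set gave 0.09. The balance of the pair, *Phf19* minus *Mtf2*, differed by 0.04 (exact permutation p = 0.7, adjusted p = 0.7).

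*Jarid2*, whose product brings PRC2 to chromatin and tunes its activity, had the only probe set of the 35 with an unadjusted p under 0.05. Both that probe set and the one that represents the gene are of the kinds left out as open to cross-hybridisation. The probe set that represents the gene was at 11.18, 11.33 and 11.18 in controls and 11.45, 11.28 and 11.28 in the *Ezh2* cko, with overlapping groups and a log2 difference of 0.11 (95% interval -0.09 to 0.31, adjusted p = 0.830). Without *Ezh2* cko replicate 1, the highest of these arrays, the difference was 0.05, and over the single arrays left out it ranged up to 0.16. The second was at 10.65, 10.70 and 10.78 in controls and 10.90, 10.88 and 10.98 in the *Ezh2* cko. There the 3 *Ezh2* cko arrays lay above the 3 controls without overlap, as in 5.72% of all probe sets, and the log2 difference was 0.21 (95% interval 0.04 to 0.38, unadjusted p = 0.0235 and adjusted p = 0.559 from limma). The last gave 0.12 with overlapping groups, so that all 3 probe sets had a positive difference and none passed the adjusted test.

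*Aebp2*, which encodes the zinc-finger protein found with JARID2, was at 11.19, 11.31 and 11.33 in controls and 11.20, 11.25 and 11.29 in the *Ezh2* cko (log2 difference -0.03, 95% interval -0.20 to 0.14, adjusted p = 0.960). Its other 4 probe sets ranged from -0.14 to 0.01, and the groups overlapped in all 5. *Jarid2* minus *Aebp2* differed by 0.14 between the groups (SD 0.09 in controls and 0.14 in the *Ezh2* cko, n = 3 each, exact permutation p = 0.2, adjusted p = 0.667), and by 0.06 without *Ezh2* cko replicate 1.

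**Figure D3:**
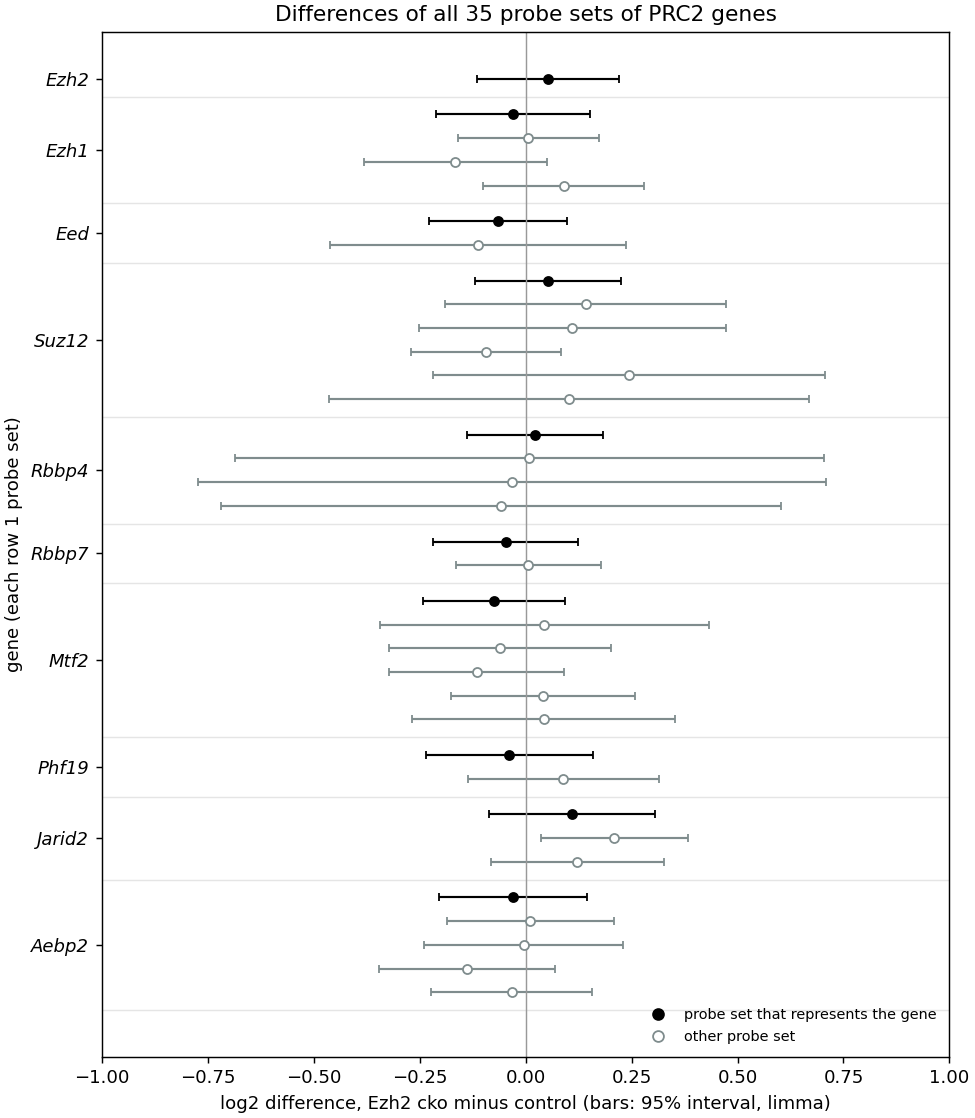
Log2 difference, *Ezh2* cko minus control, with its 95% interval from limma (x axis) for all 35 probe sets of the 10 genes (y axis), with filled points for the probe sets that represent a gene. The *Jarid2* probe set at 0.21 is the one whose interval lies clear of 0, and the 3 other probe sets of *Rbbp4* have the widest intervals.

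The genes whose profile over the 6 arrays was closest to that of *Ezh2* were *Ttf1*, *Gng11* and *Ctnna1*, with root mean square differences of 0.0154 to 0.0167 log2 units among 17052 genes that varied at least as much. For *Ezh1* they were *Nkx6-3*, *Stac* and *Wdr19*, at 0.0187 to 0.0215 among 15698. With the small spread of both profiles these are near ties.

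Among 35 other Polycomb genes measured, 1 rose, 0 fell and 34 did not pass the adjusted p, which 0.302% of all genes passed. At an unadjusted p under 0.05 from limma, 3 were higher and 0 lower, against 8.87% of all genes in either direction. The list covers PRC1 subunits, further PRC2 cofactors, the lysine 27 demethylases and the complex that removes ubiquitin from histone H2A. The gene that rose was *Bmi1*, a PRC1 subunit, at log2 signals of 11.13, 10.87 and 11.04 in controls and 11.98, 12.12 and 12.11 in the *Ezh2* cko, or 2.08-fold (log2 difference 1.06, 95% interval 0.85 to 1.27, adjusted p = 0.00671), with its second probe set at 1.17 and also past the test. Its adjusted p was 0.0214 to 0.0421 with single arrays left out. With the unpaired test and the same adjustment it was 0.380, and no probe set of the array passed. The methods state no such adjustment for the arrays, and the paper lists *Bmi1* among its differentially expressed genes. The median of the list was 0.01, with 19 above and 16 below 0. The next largest differences were those of *Asxl3* at 0.33 (adjusted p = 0.355), *Bcor* at 0.23 (adjusted p = 0.568), *Cbx7* at 0.22 (adjusted p = 0.829), *L3mbtl2* at -0.21 (adjusted p = 0.697) and *Ezhip* at -0.19 (adjusted p = 0.793). *Ezhip* encodes an inhibitor of PRC2 and *Cbx7* a reader of the mark. The representing probe set of *Cbx7* had a control mean of 5.47 (SD 0.37), and its 2 other probe sets were at -0.09 and -0.08. That mean, and the control mean of 4.79 for *Ezhip*, lay below the median of all values, 5.70. The other probe sets of *Asxl3* and *Bcor* were at 0.27 and at 0.26 to 0.37. The remaining Polycomb-like gene *Phf1* was at 0.04 (adjusted p = 0.956), and the demethylase genes *Kdm6a* and *Kdm6b* were at -0.11 and -0.08 (adjusted p = 0.921 and 0.863).

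**Figure D4:**
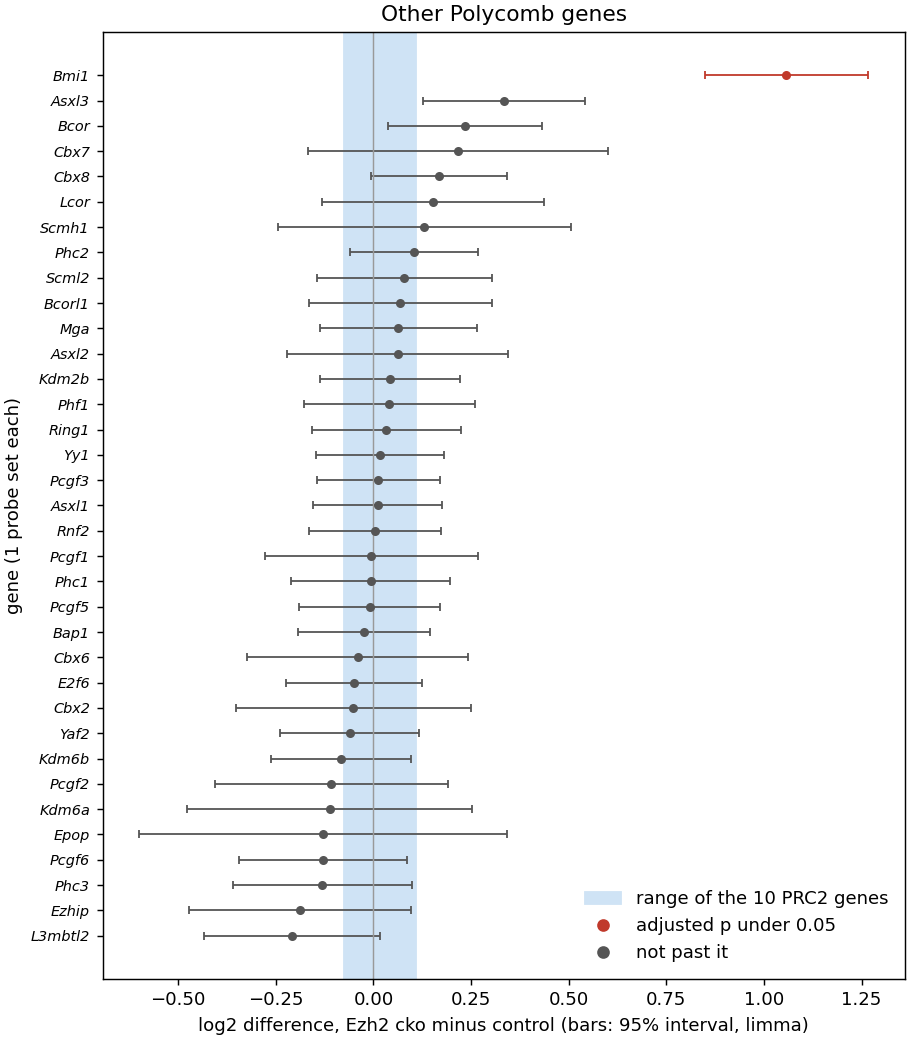
Log2 difference, *Ezh2* cko minus control, with its 95% interval from limma (x axis) for 35 other Polycomb genes (y axis), with genes past an adjusted p of 0.05 in red and the range of the 10 PRC2 genes as a band from -0.07 to 0.11. *Bmi1*, at 1.06, is the one gene in red.

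The labelled tissue was compared with 12 midbrain markers. *Otx2* and *En2*, transcription factor genes of this region, had the highest control signals of the 12. They were at log2 signals of 11.25 and 12.34 in controls and 11.34 and 12.51 in the *Ezh2* cko. The lowest was *Pax5*, at 6.57 in controls and 6.32 in the *Ezh2* cko, where the median of all values was 5.70. Since a log2 signal depends on the probes, these levels cannot decide whether the tissue label is right. No midbrain marker passed the adjusted p, and at an unadjusted p under 0.05 there were 3 of the 12 higher and 2 lower. The higher ones were *Wnt1* at a log2 difference of 0.90 (adjusted p = 0.0712), *Lmx1b* at 0.57 and *En1* at 0.37, and the lower ones were *Tal2* at -0.88 and *Pax5* at -0.25. By its threshold on size and unadjusted p, the paper lists *Wnt1* and *Tal2* among its differentially expressed genes. Of 20 proliferation genes, which mark the dividing cells in which *Ezh2* is known to be used, 18 had a negative difference, none passed the adjusted p or an unadjusted p under 0.05, and the median log2 difference was -0.04. Over all 18193 genes, 10361 differences were negative and 7832 positive, with a median of -0.02. Markers of other cells differed between arrays. The median of 19 neuron markers, as a deviation from each gene's mean, was -0.46, -0.05 and -0.01 in controls and -0.08, 0.17 and 0.42 in the *Ezh2* cko, and that of 14 mesenchyme markers -0.37, 0.07 and -0.01 against 0.03, 0.12 and 0.25. Positive differences were found for 18 of the neuron, 13 of the mesenchyme and all 8 macrophage markers, and none passed the adjusted p. At an unadjusted p under 0.05, 11 of 19 neuron, 5 of 14 mesenchyme and 1 of 8 macrophage markers were higher and 0 lower, against 8.87% of all genes in either direction. Of 12 neural progenitor markers, 2 were higher and 2 lower at this unadjusted p, and of 8 endothelium and 8 erythroid markers 0 passed. Their median log2 differences were -0.02, 0.06 and -0.065. The part of these cell types in the results of the PRC2 genes was not tested. For the 10 PRC2 genes the same median stayed between -0.01 and 0.04 on every array. Control replicate 1 had the lowest neuron, mesenchyme and macrophage medians (-0.45 for macrophages), and without it no PRC2 gene passed either, with log2 differences from -0.09 to 0.08.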

How the data were processed

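The series holds 6 Affymetrix A430 arrays, 3 control and 3 *Ezh2* cko, hybridized with biotinylated cRNA from dorsal midbrain RNA. Per the labels, the authors processed the arrays with RMA (background correction, quantile normalization and summary of each probe set), and what they deposited is a log2 signal for each probe set on each array. The RMA version is not given in the sources used here. Array signals carry no depth, and the number of arrays limits the precision.

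After leaving out 64 manufacturer's control sets, 45037 probe sets entered a linear model of *Ezh2* cko minus control (lmFit and eBayes of limma 3.58.1, run under R 4.3.3), with Benjamini-Hochberg adjustment over all of them. The platform's annotation gives 34945 probe sets 1 gene symbol, 932 several and 9160 none, and 34741 symbols matched GRCm38.p6 through Entrez identifiers. The procedure was tested on simulated data. The genes named are all members with every probe set, the other Polycomb genes past the adjusted p and the 6 with the largest absolute difference, and the 3 genes closest in profile to *Ezh2* and to *Ezh1*; *Phf1*, *Kdm6a*, *Kdm6b* and the midbrain markers were added after their values were seen. Members and lists were chosen with earlier results of these data known. Pairs of subunits were compared with exact permutation tests. Alternatives were a trended and robust prior, the unpaired test, no dim probe sets, other normalizations and no cross-hybridising probe sets. Others were the replicate number as a block, single arrays left out, gene means over probe sets and other thresholds.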

Additional observations from a re-analysis of the deposited data

How the results depend on the processing

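No PRC2 gene or probe set passed under any alternative run. The precision was not the same in all of them. Without probe sets open to cross-hybridisation, other probe sets represented *Suz12*, *Rbbp4* and *Jarid2*. Their standard errors were then 0.16, 0.30 and 0.09, against 0.08, 0.07 and 0.09 in the main fit, so the narrow intervals did not hold for *Suz12* and *Rbbp4*. Over 150 values, those of 10 genes under 15 alternatives, the lowest adjusted p was 0.563 and the largest absolute log2 difference was 0.16. The sign turned in 5 of these, all within 0.03 of 0. With the mean of all probe sets of a gene, *Rbbp4* was at -0.0147 and *Phf19* at 0.0254. Without *Ezh2* cko replicate 3, *Rbbp4* was at -0.001 and *Phf19* at 0.0007, and without *Ezh2* cko replicate 2, *Ezh1* was at 0.0233. Over the single arrays left out, the differences ranged from -0.0714 to 0.0233 for *Ezh1*, from -0.001 to 0.0347 for *Rbbp4* and from -0.1032 to 0.0007 for *Phf19*. The median of the 10 genes ranged from -0.0257 to -0.0061 over the single arrays left out. The count of all probe sets past the adjusted p, 85, was 0 with the unpaired test (3025 at an unadjusted p under 0.05). This count was 166 at an adjusted p under 0.1 and 21 to 46 without single arrays. Without control replicates 1, 2 and 3 it was 35, 21 and 26. Without *Ezh2* cko replicates 1, 2 and 3 it was 33, 46 and 39.

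Whether the replicate numbers pair the samples is not known, since the labels do not assign the litters. Deviations from the group means correlated at 0.06, -0.20 and 0.06 for same-numbered arrays, and at -0.16 to 0.12 for the others. These correlations cannot decide whether litters were shared. With the replicate block, 59 probe sets passed, 0 of them from PRC2 genes, and the median of the 10 genes stayed at -0.03. The difference *Phf19* minus *Mtf2* changed sign under quantile normalization again (-0.02) and without control replicate 2 (-0.01). Probe sets whose signal varied as much as 3 of those of *Rbbp4* limit what these arrays can show, and 9 of the 35 member probe sets fell below the limit for dim signals.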
